A study of Mus musculus with 23 samples.

Results

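Circadian clock genes were followed in 23 RNA sequencing libraries of mouse sciatic nerves (SNs). The 10 genes are Per1, Per2, Per3, Nr1d1, Nr1d2, Dbp, Tef, Ciart, Arntl and Npas2, out of 43068 genes listed in the files. They were chosen by symbol, with the results of these data known, around a lower level of Per3. The differences that may stand behind that choice are given without p-values, and calls among them only describe which limits were passed. All 10 were listed in both experiments, 10 of 10 passed the filter on low counts in 4 comparisons, and 9 of 10 passed it in the other 3, where Npas2 was too low.

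The mammalian clock is a transcriptional feedback loop that runs in nearly all cells, those of peripheral tissues included. A dimer of CLOCK (or its paralog NPAS2) and ARNTL, also called BMAL1, binds E-boxes and drives the Period and Cryptochrome genes, Nr1d1, Nr1d2, Dbp and Ciart, while PER and CRY proteins feed back to repress the dimer. NR1D proteins repress Arntl and Npas2 through ROR response elements (ROREs), and the bZIP activators DBP, TEF and HLF act on D-boxes, where NFIL3 represses. In tissues of mice kept in light and dark, genes driven by E-boxes and D-boxes therefore peak at times of day roughly opposite to those of Arntl and Npas2.

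The crush experiment used wild-type C57BL/6J males, 2 months old. It holds nerves at 3 days post crush injury (3 dpc, n = 4), taken distal to the crush, uninjured contralateral nerves at the same time (n = 4), and uncrushed nerves of surgery controls (n = 3). Nerves were exposed at the hip under anesthesia with buprenorphine given around surgery. The inducible knockout (iKO) experiment holds 4 groups (n = 3 each), all homozygous for a floxed allele on a C57BL/6 background, all given tamoxifen at 8 to 10 weeks of age and all sampled 3 months later. Dicer iKO were P0-CreERT2 -/+ Dicer1 flox/flox and their controls P0-CreERT2 -/- Dicer1 flox/flox. Dgcr8 iKO were P0-CreERT2 -/+ Dgcr8 flox/flox and their controls P0-CreERT2 -/- Dgcr8 flox/flox. Dicer and DGCR8 both act in making microRNAs, DGCR8 as the partner of Drosha in the nucleus and Dicer afterwards in the cytoplasm. The transgene acts in adult myelinating Schwann cells, so other cells of the nerve keep both alleles, and mutant mice were preselected for altered nerve morphology. Controls carried no CreERT2, so an effect of the transgene with tamoxifen cannot be told apart from one of the deletion. Mice of either sex could enter the iKO experiment.

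The hour at which nerves were collected is not given in the sources used here, and each group was sampled once. A later or earlier phase, a lower amplitude and a lower mean level of a cycling gene cannot be told apart from 1 sampling time. The study's methods count as many mice as libraries in each group, so replicates are separate mice. Contralateral nerves came from the injured mice. Per the study's methods they were harvested and processed in parallel with the crushed nerves, so both groups share their hours of collection. The labels do not say which crushed and contralateral libraries share a mouse. Those groups were fitted as independent, and a fit blocked on replicate number gave equal counts of the 10 genes called (7 lower and 2 higher). The numbers are not known to mark mice, so that fit does not test the effect of shared mice.

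Total counts ranged from 6617716 to 12806066 per library in the crush experiment and from 5594859 to 10143244 in the iKO experiment. A count of 3, set as the lowest level that could be read, corresponded to 0.234 to 0.453 and 0.296 to 0.536 CPM (counts scaled to a common library size), and covers counting error only. Whole-gene counts were not lower for Dgcr8 in Dgcr8 iKO, and for Dicer1 in Dicer iKO they were slightly lower, without overlap. Dgcr8 was at 39.3 to 53.7 CPM in Dgcr8 iKO and 34.9 to 41.9 CPM in their controls, and Dicer1 was at 81.0 to 82.8 CPM in Dicer iKO and 88.0 to 91.0 CPM in their controls. The counts do not resolve the floxed exons, so these values do not check the labels. By quantitative PCR the study reports reduced Dicer and Dgcr8 mRNA in such mutants. Schwann cell markers (9 genes) were present in every library, as the label of sciatic nerve requires.

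Promoter sequences show which known clock elements lie next to the genes described. RefSeq windows (GRCm38.p6) from 250 bases before to 50 bases after a start site were held for 9 of 10 genes (12 windows), and the exception is Per2. Both strands were searched for the E-box CACGTG, the E-prime box CACGTT, the D-box TTANGTAA and the RORE core TAGGTCA. The Per3 and Ciart windows had more than 1 match each and are shown up to the start site, together with that of Per1, with matches in capitals (5′ to 3′).
Per3, chr4:151044666-151044915, minus strand: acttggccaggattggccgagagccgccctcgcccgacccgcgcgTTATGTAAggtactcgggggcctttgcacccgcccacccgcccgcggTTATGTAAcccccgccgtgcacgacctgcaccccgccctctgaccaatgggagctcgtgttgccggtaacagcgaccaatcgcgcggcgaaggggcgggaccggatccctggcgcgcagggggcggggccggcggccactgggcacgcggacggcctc
Ciart, chr3:95882229-95882478, minus strand: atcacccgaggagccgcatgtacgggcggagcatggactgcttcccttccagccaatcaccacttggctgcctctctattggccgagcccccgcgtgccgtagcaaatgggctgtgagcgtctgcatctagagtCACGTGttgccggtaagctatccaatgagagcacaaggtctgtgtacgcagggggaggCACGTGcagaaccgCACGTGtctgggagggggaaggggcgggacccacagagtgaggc
Per1, chr11:69098699-69098948, plus strand: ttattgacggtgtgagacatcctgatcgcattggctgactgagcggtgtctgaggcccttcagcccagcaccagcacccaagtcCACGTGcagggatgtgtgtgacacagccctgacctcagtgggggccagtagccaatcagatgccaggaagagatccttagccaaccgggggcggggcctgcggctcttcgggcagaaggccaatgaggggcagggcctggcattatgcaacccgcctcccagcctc
Per3 had 2 D-boxes, at -205 and -158 from its start site, and no E-box in this window. Ciart had 3 E-boxes, at -116, -58 and -44, and Per1 had 1 at -166. Both Tef windows held an E-box (at -127 and -138) and Nr1d1 an E-prime box at -28, read on its own strand as AACGTG. In 1 of 2 Arntl windows a RORE core lay 30 bases after the start site, and the bases around it are shown for contrast with the promoters above.
Arntl, chr7:113207530-113207558, plus strand: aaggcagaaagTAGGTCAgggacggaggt
The windows of Dbp, Nr1d2 and Npas2 held none of these letters. Over all 32851 mouse promoter windows of this length, 7.15% held the E-box, 4.69% the E-prime box, 2.61% the RORE core and 2.32% the D-box. A match is a stretch of letters and not a measured binding site, and motifs of the clock also lie outside such windows.

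**Figure D1:**
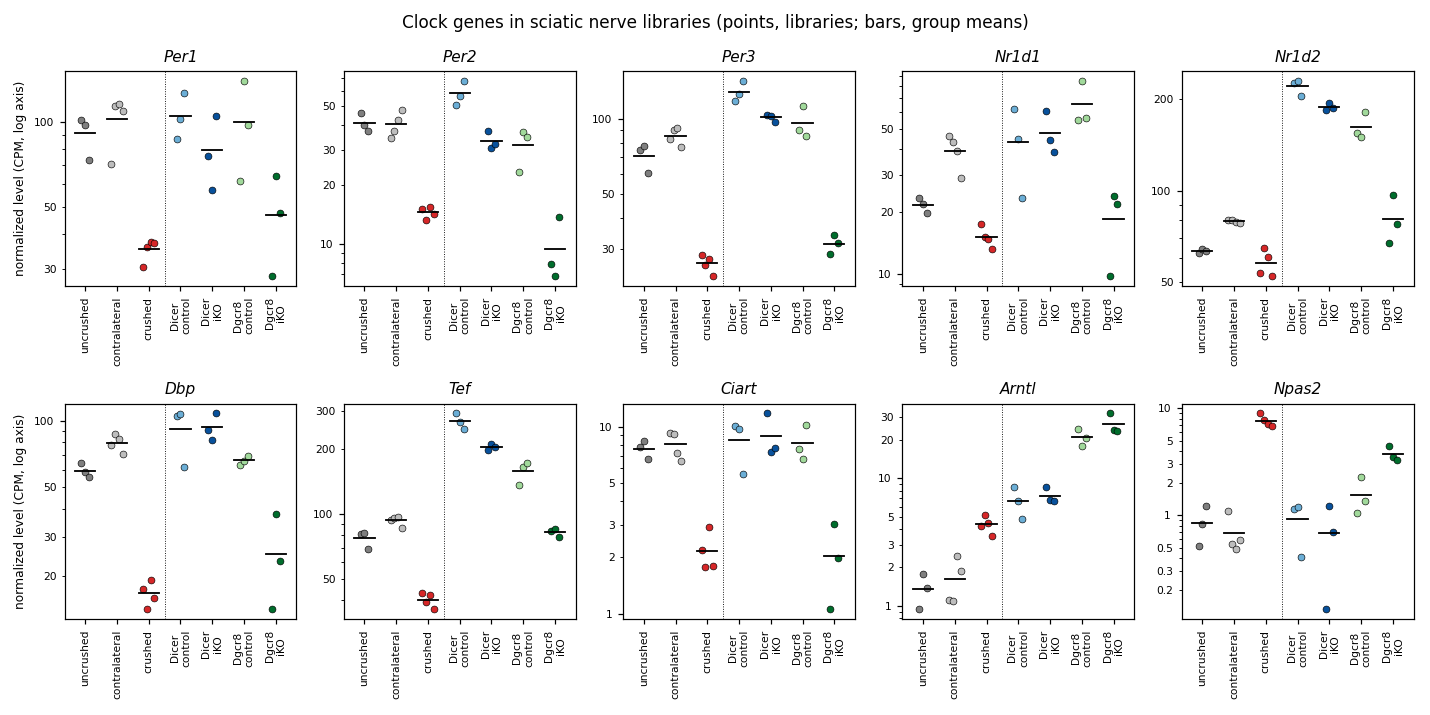
Normalized level (CPM, log axis) of 10 clock genes in the 11 crush libraries (left of the dotted line) and the 12 iKO libraries (right of it); each point is a library and each bar a group mean. Per3 lay between 23.2 and 28.3 CPM in crushed nerves and between 28.5 and 34.0 CPM in Dgcr8 iKO, below every other group of its experiment.

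Levels between genes were compared per length, as FPKM (fragments scaled by transcript length and depth). In uncrushed nerves Dbp (58.3 FPKM) and Tef (47.9 FPKM) were highest, followed by Per1 (24.3 FPKM), Nr1d2 (18.6 FPKM) and Per3 (14.3 FPKM), and Arntl (0.487 FPKM) was lowest. In Dgcr8 control nerves the order began with Tef (47.5 FPKM), Dbp (42.8 FPKM) and Nr1d2 (40.2 FPKM), and ended with Npas2. The labels name different library kits for the crush and iKO experiments while the study's methods describe 1 kit, so levels are not compared between the experiments.
Within an experiment, 7 of 10 genes (Per1, Per3, Nr1d1, Nr1d2, Dbp, Tef and Ciart) had the same order by mean CPM, from contralateral over uncrushed to crushed nerves. Neighbors in that order did not overlap for Nr1d1, Dbp and Tef. In the iKO experiment Per2, Per3, Nr1d2 and Tef ran from Dicer controls over Dicer iKO and Dgcr8 controls to Dgcr8 iKO, without overlap between neighbors for Nr1d2 and Tef, and with overlap of Dicer iKO and Dgcr8 controls for Per2 and Per3.

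The Period genes encode the repressors that give the feedback loop its delay. Per3 was at 75.1, 77.7 and 60.5 CPM in uncrushed nerves, at 82.9, 90.4, 91.5 and 76.7 CPM in contralateral nerves, and at 28.3, 25.7, 27.4 and 23.2 CPM at 3 dpc. The crushed nerves did not overlap with either control. The log2 fold change was -1.57 (standard error, SE, 0.11) against uncrushed and -1.85 (SE 0.09) against contralateral nerves, or 2.96-fold and 3.59-fold lower. In the iKO experiment Per3 was at 28.5, 34.0 and 31.4 CPM in Dgcr8 iKO and at 90.4, 112 and 84.9 CPM in their controls. Every mutant library lay below every control, with a log2 fold change of -1.62 (SE 0.14). In Dicer iKO it was at 104, 103 and 96.9 CPM, against 118, 126 and 143 CPM in Dicer controls, which did not overlap (log2 fold change -0.34, SE 0.10).
The difference between the mutants' effects on Per3 was -1.27 on the log2 scale (SE 0.18). It was 1 of 2 genes called among the 13552 in that comparison, the other being Plvap, an endothelial gene at 8.85 to 13.8 CPM in Dgcr8 iKO, 0.235 to 0.416 CPM in their controls and 0.679 to 1.86 CPM in the Dicer libraries. In the same comparison 1861 genes had an unadjusted p under 0.05 and DESeq2 called 235. The comparison behind the choice of the genes is not named, so this call may have carried that choice. The call was lost with RLE normalization, with the replicate number as a block and in 10 of 12 leave-one-out fits. The value stayed between -1.36 and -1.14.

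Per1, which besides its E-box answers glucocorticoid and cAMP signals, was at 30.5, 36.0, 37.4 and 37.2 CPM at 3 dpc, against 73.4 to 102 CPM in uncrushed and 71.1 to 116 CPM in contralateral nerves. It was 2.81-fold and 3.20-fold lower without overlap. In Dgcr8 iKO it was at 28.2, 64.0 and 47.5 CPM against 61.8, 140 and 97.5 CPM, so the groups overlapped (log2 fold change -1.10, SE 0.31). Without Dgcr8 iKO replicate 1 the value was -0.84 and without control replicate 2 it was -0.77, both under the 2-fold limit.
Per2 was at 15.0, 13.3, 15.5 and 14.2 CPM at 3 dpc, against 37.4 to 46.5 CPM and 34.6 to 48.1 CPM in the uncrushed and contralateral nerves. In Dgcr8 iKO it was at 7.88, 6.83 and 13.6 CPM against 23.1, 37.0 and 34.8 CPM, a log2 fold change of -1.75 (SE 0.26). Among the Period genes it was the one that differed in Dicer iKO by the test across all genes. There it was at 37.5, 30.6 and 32.3 CPM against 51.0, 56.7 and 67.6 CPM (log2 fold change -0.80, SE 0.14, edgeR's quasi-likelihood test, adjusted p = 0.00938 by Benjamini-Hochberg), which is under the 2-fold limit of a call.

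The nuclear receptors NR1D1 and NR1D2 (REV-ERB alpha and beta) are the repressors of Arntl and Npas2. Nr1d1 was at 23.2, 21.7 and 19.7 CPM in uncrushed nerves, at 46.0, 43.2, 39.0 and 29.0 CPM in contralateral nerves and at 17.4, 15.0, 14.8 and 13.2 CPM at 3 dpc. All 3 groups were apart. The log2 fold change at 3 dpc was therefore -0.63 (SE 0.12) against uncrushed but -1.52 (SE 0.14) against contralateral nerves. In Dgcr8 iKO Nr1d1 was at 9.77, 23.7 and 21.7 CPM, against 54.8, 85.3 and 56.3 CPM in controls (log2 fold change -1.83, SE 0.28). In Dicer iKO it was at 60.6, 44.2 and 38.7 CPM, within the 62.2, 44.7 and 23.2 CPM of their controls.
Nr1d2 had the smallest difference of the E-box and D-box genes after crush, at 52.2 to 64.6 CPM against 62.4 to 64.2 CPM in uncrushed nerves, which overlapped (log2 fold change -0.26, SE 0.09, and -0.03 without a filter on counts, where the median of all genes was -0.39). Against contralateral nerves (78.2 to 80.0 CPM) the log2 fold change was -0.60 (SE 0.07). In Dgcr8 iKO it was at 67.4, 97.1 and 77.8 CPM against 150 to 182 CPM, a log2 fold change of -1.01 (SE 0.15), which lies at the 2-fold limit. It fell short of that limit without Dgcr8 iKO replicate 1 (-0.90), without Dgcr8 iKO replicate 3 (-0.98) or without control replicate 3 (-0.94).

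DBP and TEF are activators at D-boxes, and Dbp is among the most strongly cycling transcripts of many tissues. Dbp was at 17.4, 14.1, 19.2 and 15.9 CPM at 3 dpc, at 64.1, 58.4 and 55.9 CPM in uncrushed nerves and at 77.8, 87.3, 82.5 and 71.0 CPM in contralateral nerves. It was 3.89-fold lower than in uncrushed and 5.27-fold lower than in contralateral nerves, and again no 2 of the 3 groups overlapped. In Dgcr8 iKO it was at 14.1, 37.8 and 23.2 CPM against 63.3, 65.5 and 69.5 CPM (log2 fold change -1.40, SE 0.26). Dbp in Dicer iKO was at 91.1, 81.7 and 108 CPM, and in their controls at 105, 107 and 62.1 CPM.
Tef was at 36.4 to 43.1 CPM at 3 dpc, against 69.3 to 81.8 CPM in uncrushed nerves (log2 fold change -1.07, SE 0.09) and 86.4 to 97.6 CPM in contralateral nerves (-1.35, SE 0.08). The first value was just past the 2-fold limit and was under it without uncrushed replicate 1 or 2 (-0.99 without replicate 1) or without a filter on counts (-0.84). In Dgcr8 iKO it was at 79.0 to 86.0 CPM against 137 to 173 CPM (log2 fold change -0.94, SE 0.13). Tef in Dicer iKO was at 199 to 211 CPM against 247 to 293 CPM, a log2 fold change of -0.39 (SE 0.10, adjusted p = 0.0319, edgeR's quasi-likelihood test).

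Ciart (CHRONO), a repressor of the CLOCK and ARNTL dimer, was at 2.19, 1.78, 2.90 and 1.81 CPM at 3 dpc, against 6.72 to 8.35 CPM in uncrushed and 6.60 to 9.28 CPM in contralateral nerves. It was 3.83-fold and 4.12-fold lower. In Dgcr8 iKO it was at 1.06, 3.04 and 1.98 CPM against 7.65, 6.70 and 10.2 CPM, which at a log2 fold change of -1.99 (SE 0.34) was the most negative of the 10 values in that comparison. Ciart in Dicer iKO was at 11.8, 7.30 and 7.66 CPM against 10.1, 9.76 and 5.57 CPM, with overlap.

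Arntl and Npas2, the RORE-driven arm, were both higher after crush, while in the mutants their values differed from each other. Arntl was at 4.20, 5.16, 4.49 and 3.51 CPM at 3 dpc, against 0.940, 1.77 and 1.37 CPM in uncrushed nerves and 1.10, 1.09, 2.45 and 1.87 CPM in contralateral nerves. It was 2.99-fold and 2.46-fold higher, without overlap. Npas2 was at 9.01, 7.74, 7.19 and 6.92 CPM at 3 dpc, and at 0.513 to 1.22 CPM and 0.489 to 1.10 CPM in the controls. Its log2 fold changes of 3.14 (SE 0.28) and 3.35 (SE 0.24) were the largest in size of the 10 genes, with control levels close to the lowest readable level.
In the iKO experiment Npas2 was at 4.47, 3.51 and 3.26 CPM in Dgcr8 iKO and at 1.06, 2.28 and 1.35 CPM in their controls (log2 fold change 1.27, SE 0.36). It was not called without Dgcr8 iKO replicate 1 (1.12) or without control replicate 1 or 3 (1.05 and 1.16). In Dicer iKO and their controls it was between 0.133 and 1.22 CPM and was not tested.
Arntl differed less between Dgcr8 iKO (32.4, 23.9 and 23.4 CPM) and their controls (24.4, 17.8 and 20.7 CPM), which overlapped (log2 fold change 0.33, SE 0.17). Both groups lay above all Dicer libraries, where Arntl was at 8.49, 6.78 and 6.68 CPM in Dicer iKO and 8.61, 6.69 and 4.75 CPM in controls.

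**Figure D2:**
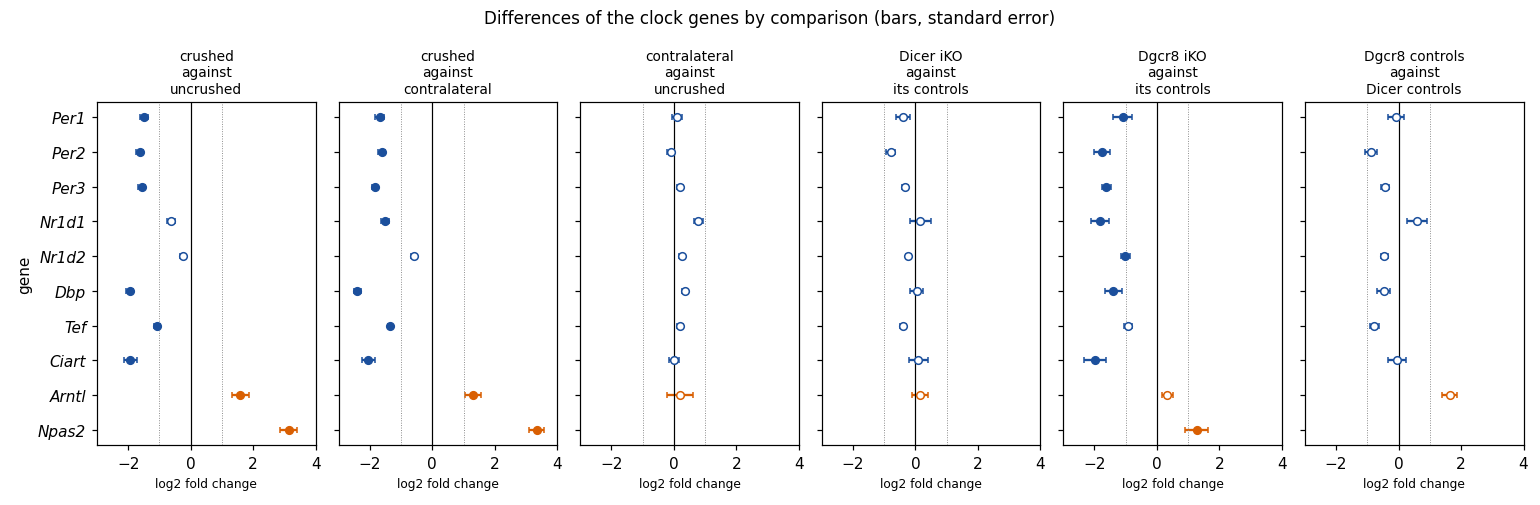
Log2 fold change (x axis) of each clock gene in 6 comparisons, with standard errors as bars; filled points passed the call limits (2-fold and an adjusted p of 0.05), open points did not, and orange marks Arntl and Npas2. Crushed nerves and Dgcr8 iKO show the blue genes on the negative side and Npas2 on the positive side, while contralateral nerves and Dicer iKO show no filled point.

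Counted together, 6 of the 10 genes were called lower and 2 higher at 3 dpc against uncrushed nerves, where 21.1% and 15.3% of all 17433 genes tested were called lower and higher. A call needed a fold change of at least 2 and an adjusted p of at most 0.05. Against contralateral nerves 7 were called lower and 2 higher, beside 13.6% and 14.6% of 16667 genes. Both counts rest on the same 4 crushed nerves, and both comparisons were open to the choice of the genes, so nothing is read from the counts beside these shares. The median log2 fold change of the 10 genes was -1.28 and -1.57, beside -0.03 and -0.06 over all genes tested. In Dgcr8 iKO 7 of 10 were called lower (all 8 E-box and D-box genes except Tef) and 1 higher (Npas2), beside 6.99% and 13.4% of 13252 genes, and the median was -1.25 beside -0.01. Leaving out single libraries gave 5 to 8 lower and 0 to 1 higher. Dgcr8 iKO was open to the choice of the genes too, so nothing is read from its counts or from these medians.

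In Dicer iKO 0 of the 9 genes tested were called, beside 1.64% of 13045 genes called lower and 7.37% called higher. Of the 8 genes other than Per3, 3 had an unadjusted p under 0.05 and DESeq2 called 0. By adjusted p alone, at any fold, Per2 and Tef passed, beside 21.2% of all genes, and the other 6 had adjusted p-values between 0.129 and 0.902 in edgeR's quasi-likelihood test. Per2, Per3, Nr1d2 and Tef were lower without overlap (4 of 9), beside 20.2% of all genes, and Nr1d1, Dbp, Ciart and Arntl had log2 fold changes between 0.04 and 0.15. Leaving out Dicer control replicate 3 turned these 4 values to between -0.17 and -0.05.
The Dgcr8 effect minus the Dicer effect was negative for all 8 E-box and D-box genes, from -0.54 (Tef, SE 0.16) to -2.07 (Ciart, SE 0.49). It was -1.98 (SE 0.50) for Nr1d1 and -1.43 (SE 0.39) for Dbp, and edgeR called Per3 alone of the 10, beside 0.00738% of all genes called lower. DESeq2 called 5 of the 10 lower in this comparison (Per3, Nr1d1, Nr1d2, Dbp and Ciart), so which genes were called depended on the tool. The median over the 10 genes was -0.87, beside -0.0047 over all genes, and these differences may share the contrast by which the genes were chosen.

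**Figure D3:**
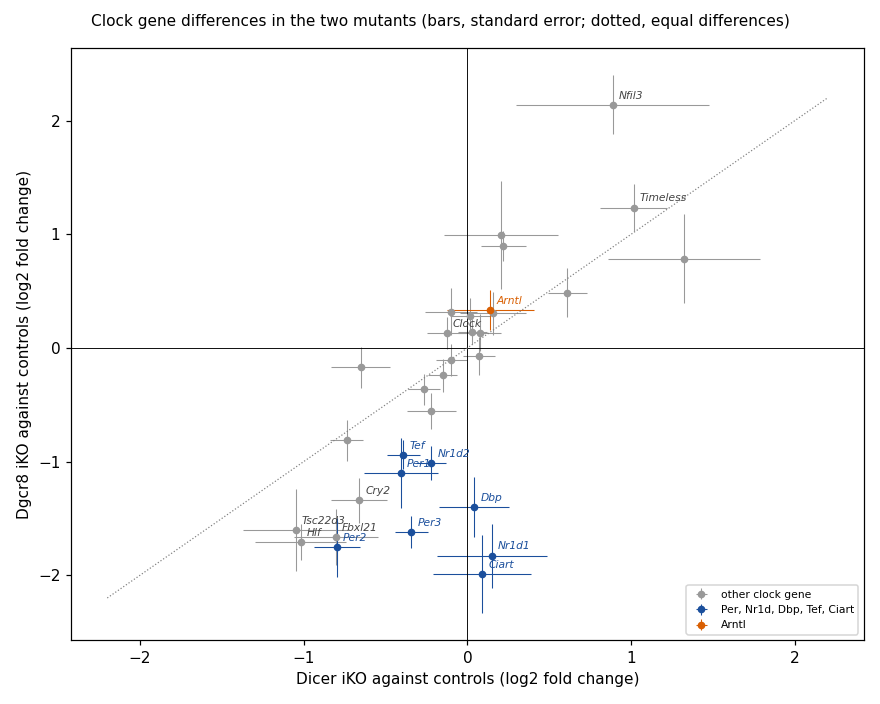
Log2 fold change in Dicer iKO (x axis) and in Dgcr8 iKO (y axis), each against its own controls, for the 9 clock genes tested in both (blue and orange) and other clock genes tested in both (grey), with standard errors as bars. Ciart, Nr1d1 and Dbp lie near 0 on the x axis and between -1.99 and -1.40 on the y axis.

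Nerves without injury or deletion were compared in the same way. Of the 9 genes tested between contralateral and uncrushed nerves, 0 passed the call limits, as did 0% of 17722 genes. Nr1d1, Nr1d2, Dbp and Tef were higher in contralateral nerves without overlap (4 of 9), beside 12.1% of all genes. Per1, Per2, Per3, Ciart and Arntl overlapped. The log2 fold change was 0.79 (SE 0.14, adjusted p = 0.104) for Nr1d1 and 0.34 (SE 0.09, adjusted p = 0.135) for Dbp, by edgeR's quasi-likelihood test, so neither passed. Of the 8 genes other than Per3, 4 had an unadjusted p under 0.05 and DESeq2 called 0. For Ciart it was 0.01 (SE 0.16, adjusted p = 0.990) and for Per2 -0.11 (SE 0.12, adjusted p = 0.670). Across all genes, 0 were called by edgeR, 3165 had an unadjusted p under 0.05, and DESeq2 called 31.
Between Dgcr8 controls and Dicer controls, which are both free of Cre, 0 of 9 genes were called, beside 0.0312% of 12823 genes (4 genes). Of the 8 genes other than Per3, 5 had an unadjusted p under 0.05 and DESeq2 called 1 (Arntl). Arntl came nearest, 3.12-fold higher in Dgcr8 controls and without overlap (1 of 9, beside 11.5% of all genes; 17.8 to 24.4 CPM against 4.75 to 8.61 CPM). Its log2 fold change of 1.64 (SE 0.24) had an adjusted p of 0.0768 in edgeR's quasi-likelihood test of the 2 groups. The adjusted p was 0.00742 when edgeR fitted all 4 groups, 0.0103 without a filter on counts and 2e-06 in DESeq2, so the call depended on the fit. Leaving out Dicer control replicate 1 or 3 also gave a call (1.87 and 1.44). Per2, Per3, Nr1d2 and Tef were lower in Dgcr8 controls without overlap (4 of 9, beside 11.8% of all genes), with log2 fold changes of -0.89, -0.43, -0.45 and -0.77. The adjusted p was 0.111 for Per2, 0.143 for Nr1d2 and 0.109 for Tef. The labels give no batch or date for these groups, and the hour of collection is not given either, so line, batch and hour cannot be told apart.

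Gene by gene, the direction of a shifted phase can be set beside the Per3 value. A sample taken further from a shared peak of the E-box and D-box genes would hold less of these 8 and more of Arntl and Npas2. The 8 genes need not peak at the same hour, so a shift could also move them in unlike directions. The direction named above is thus a simplification and does not decide on a shift. At 3 dpc all 10 genes had that direction against both controls, but with unequal sizes, from -0.26 for Nr1d2 to -1.96 for Dbp against uncrushed nerves. In Dgcr8 iKO all 10 had it too by sign, and Per3 (-1.62) stood between Dbp (-1.40) and Per2 (-1.75). For Arntl the value was 0.33 (SE 0.17), which was not called, and the groups overlapped. In Dicer iKO Per1, Per2, Per3, Nr1d2, Tef and Arntl had that direction and Nr1d1, Dbp and Ciart did not, all 9 being under 2-fold. The values of Arntl, Nr1d1, Dbp and Ciart lay within their standard errors there, and their signs turned without Dicer control replicate 3. Whether a shift, a lower amplitude or a lower level holds for any of these genes was not tested, since no group has a second time of day.
The same values were also summarized per library, as the mean of log2(CPM + 1) over Arntl and Npas2 minus that over the other 8 genes. This difference restates the values above and is no separate observation. It was -4.44 ± 0.33 (SD, n = 3) in uncrushed, -4.72 ± 0.19 (n = 4) in contralateral and -1.60 ± 0.13 (n = 4) in crushed nerves. It was -4.41 ± 0.21 in Dicer controls, -4.22 ± 0.28 in Dicer iKO, -3.12 ± 0.16 in Dgcr8 controls and -1.11 ± 0.56 in Dgcr8 iKO (n = 3 each). Dgcr8 controls, from -3.24 to -2.95, thus lay apart from the Dicer controls, from -4.64 to -4.22, before any deletion. The Arntl and Npas2 mean was 2.89 in Dgcr8 controls against 1.91 in Dicer controls, and the mean of the other 8 genes 6.01 against 6.32. In crushed against uncrushed nerves the same means were 2.76 against 1.05, and 4.36 against 5.48.

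**Figure D4:**
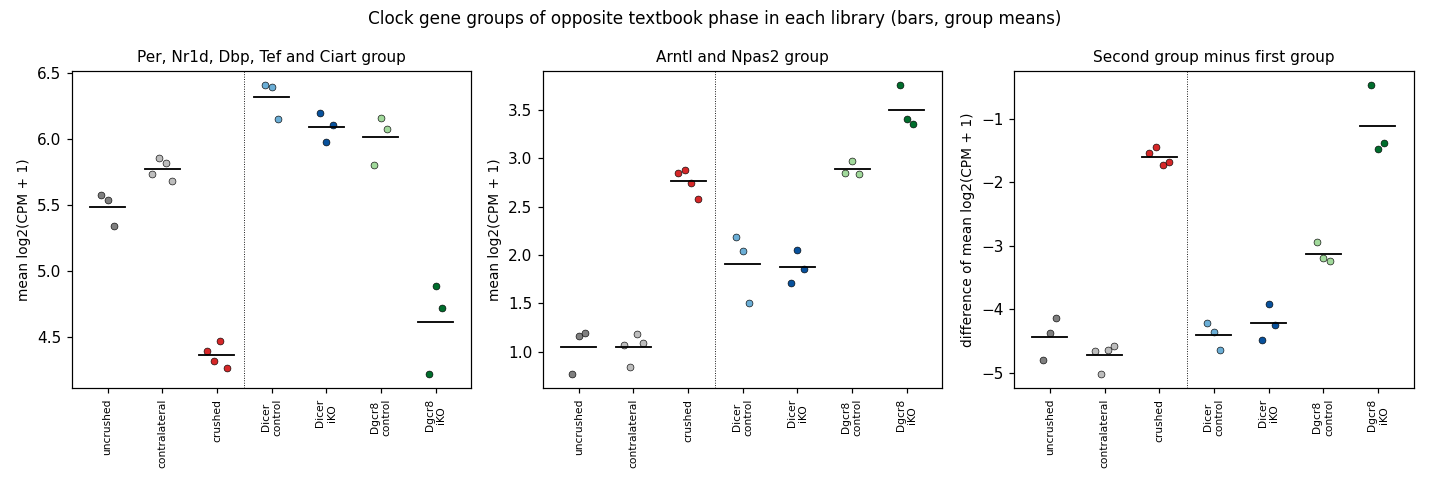
Mean log2(CPM + 1) per library of the 8 E-box and D-box genes (left), of Arntl and Npas2 (middle), and the second minus the first (right); bars are group means and the dotted line parts the 2 experiments. On the right, crushed nerves lie from -1.73 to -1.44 and Dgcr8 iKO from -1.48 to -0.47, above all other groups of their experiment.

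Libraries of one group also differed in these genes. Of the 3 Dgcr8 iKO libraries, replicate 1 was lowest for 6 of 10 genes (Per1, Per3, Nr1d1, Nr1d2, Dbp and Ciart) and highest for Arntl and Npas2. Replicate 2 was highest for 7 of 10, and its difference of means was -1.48, against -0.47 in replicate 1. Dbp thus ranged from 14.1 to 37.8 CPM within that group. Dicer control replicate 3 was highest for all 3 Period genes and lowest for the other 7, with Nr1d1 at 23.2 CPM beside 44.7 and 62.2 CPM and Per2 at 67.6 CPM beside 51.0 and 56.7 CPM. Without this library 781 genes were called between the control groups (4 with it) and 401 in the difference between the mutants' effects (2 with it), Per3 still being the 1 clock gene of the 10 called in the latter. In the crush experiment contralateral replicate 1 was lowest for Per1 and Per2 and highest for Nr1d1, Nr1d2, Ciart and Npas2.

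Transcripts of other clock genes were counted from a list of 25. At 3 dpc 5 were called lower and 6 higher against uncrushed nerves (21.1% and 15.3% of all genes), and 6 lower and 4 higher against contralateral nerves (13.6% and 14.6% of all genes). In Dgcr8 iKO 5 of the 24 tested were called lower and 2 higher (6.99% and 13.4% of all genes), and in Dicer iKO 1 lower and 1 higher (1.64% and 7.37% of all genes). The count was 0 between contralateral and uncrushed nerves, between the Cre-free groups and in the difference of the mutants' effects. In these last 3 comparisons 7, 8 and 3 had an unadjusted p under 0.05 and DESeq2 called 0 in each. The median log2 fold change over the list was 0.22 at 3 dpc against uncrushed nerves, beside -0.03 over all genes. It was -0.04 against contralateral nerves, beside -0.06, and 0.03 in Dgcr8 iKO, beside -0.01. All adjusted p-values that follow are from edgeR's quasi-likelihood test.
Cry2, which encodes a repressor that works with PER, was 3.99-fold lower at 3 dpc (11.5 to 16.1 CPM) than in uncrushed nerves (44.9 to 57.3 CPM, adjusted p = 5.08e-08). It fell in Dgcr8 iKO by 1.34 on the log2 scale (SE 0.20, adjusted p = 0.000275), from 58.2 to 90.5 CPM in controls to 23.7 to 37.7 CPM. In Dicer iKO it was at 44.9 to 54.9 CPM, below the 62.9 to 98.3 CPM of controls (-0.66, adjusted p = 0.0315), which is under 2-fold. Its paralog Cry1, which peaks later in the cycle, had -0.55 (SE 0.15, adjusted p = 0.00556) at 3 dpc and -0.17 (SE 0.18, adjusted p = 0.475) in Dgcr8 iKO. In Dicer iKO it was lower without overlap (-0.65, SE 0.18, adjusted p = 0.0393), and the difference between the mutants' effects did not pass (0.49, adjusted p = 0.405).
Hlf, the third D-box activator beside Dbp and Tef, fell at 3 dpc against uncrushed nerves (-2.45, SE 0.13, adjusted p = 1.04e-08) and in Dgcr8 iKO (-1.71, SE 0.16, adjusted p = 1.6e-05). It was also called in Dicer iKO (-1.02, SE 0.28, adjusted p = 0.0381), although Dicer controls ranged from 27.8 to 59.9 CPM and the call was lost with the replicate number as a block and in 5 of 6 leave-one-out fits (-1.27 to -0.76). Nfil3, the repressor at D-boxes, whose own gene follows Arntl in phase, rose from 1.45 to 3.21 CPM in uncrushed nerves to 6.30 to 9.39 CPM at 3 dpc (1.72, SE 0.26, adjusted p = 0.000101). It rose in Dgcr8 iKO from 1.97 to 3.06 CPM to 8.73 to 11.8 CPM (2.14, SE 0.26, adjusted p = 8.13e-05). In Dicer iKO it was at 2.37 to 4.69 CPM against 0.431 to 3.12 CPM (0.89, SE 0.59, adjusted p = 0.318). The difference between the mutants' effects did not pass for Hlf (-0.68, adjusted p = 0.398), Nfil3 (1.26, adjusted p = 0.413) or Cry2 (-0.68, adjusted p = 0.339).
Clock, the partner of Arntl, was at 75.3 to 92.4 CPM in uncrushed and 106 to 126 CPM in crushed nerves (0.30, SE 0.10, adjusted p = 0.0182). It did not pass against contralateral nerves (0.14, adjusted p = 0.122) or in Dgcr8 iKO (0.13, SE 0.14, adjusted p = 0.468). Rora, an activator at ROREs, was lower at 3 dpc (1.99-fold against uncrushed nerves, adjusted p = 2.83e-05, and -1.07 on the log2 scale against contralateral nerves, adjusted p = 9.24e-07). The repressors Bhlhe40 and Bhlhe41 had values of 0.25 and 0.29 at 3 dpc against uncrushed nerves (adjusted p = 0.0267 and 0.0373) but of -0.18 and -0.04 against contralateral nerves (adjusted p = 0.156 and 0.754), and of 0.13 and -0.07 in Dgcr8 iKO (adjusted p = 0.532 and 0.748).
Tsc22d3, a glucocorticoid-induced gene, was lower at 3 dpc (-2.74, SE 0.12, adjusted p = 1.79e-09) and in Dgcr8 iKO (-1.60, SE 0.36, adjusted p = 0.00406). Its levels ranged widely in Dgcr8 controls, from 295 to 714 CPM. Fbxl21, which targets CRY proteins, was lower at 3 dpc (-2.67, adjusted p = 4.33e-06) and in Dgcr8 iKO (-1.66, adjusted p = 0.000296). Tsc22d3 and Fbxl21 were also lower without overlap in Dicer iKO (-1.05 and -0.80), but did not pass (adjusted p = 0.054 and 0.0602). The difference between the mutants' effects did not pass for Tsc22d3 or Fbxl21 (adjusted p = 0.699 and 0.334). Timeless, which in mammals also serves DNA replication, was higher at 3 dpc (1.35, adjusted p = 8.09e-06), in Dgcr8 iKO (1.24, adjusted p = 0.00061) and in Dicer iKO (1.02, adjusted p = 0.0147). The last of these calls was lost with the replicate number as a block and in 4 of 6 leave-one-out fits (0.94 to 1.16). Against uncrushed nerves Prkaa1 (1.60), Tspan4 (1.64), Csnk1e (1.07) and Leo1 (1.05) were also called higher at 3 dpc, with adjusted p-values of at most 7.83e-06. Of these, Prkaa1 and Tspan4 were called against contralateral nerves as well.

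Cell type markers also differed between groups, in Dicer iKO as well as in crushed nerves and Dgcr8 iKO. Summed over 9 Schwann cell markers, the level was 36488 to 41821 CPM in uncrushed, 41695 to 55607 CPM in contralateral and 2116 to 3235 CPM in crushed nerves, with 7 of 9 called lower against uncrushed nerves. Summed over 7 macrophage markers it was 99.4 to 131, 83.2 to 150.5 and 681 to 1661 CPM in the same order, with 7 of 7 called higher. In Dgcr8 iKO the Schwann cell sum was 14767 to 28573 CPM against 42653 to 46462 CPM (4 of 9 called lower), and the macrophage sum 2364 to 5652 CPM against 247 to 291 CPM (6 of 7 called higher). In Dicer iKO the Schwann cell sum was 22506 to 27561 CPM against 28173 to 47161 CPM (0 of 9 called), and the macrophage sum 3582 to 6543 CPM against 264 to 886 CPM (5 of 7 called higher). Endothelial markers (5 genes) summed to 108.5 to 122 CPM in uncrushed, 111 to 130 CPM in contralateral and 160 to 198 CPM in crushed nerves, with 2 of 5 called higher against each control. Their sum was 125 to 174 CPM in Dgcr8 iKO against 155 to 172 CPM, and 107 to 119 CPM in Dicer iKO against 156 to 190 CPM. In whole nerves, fewer cells of a type and less RNA per cell cannot be told apart, and the part of cell makeup in the clock gene values was not tested.
Fibroblast and perineurial markers (6 genes) summed to 13005 to 16180 CPM in Dgcr8 iKO against 6340 to 7961 CPM, and to 16844 to 17436 CPM in Dicer iKO against 5489 to 14435 CPM. In crushed nerves they were at 2704 to 3169 CPM, below both controls. Adipocyte markers (5 genes, Adipoq and Plin1 among them) reached at most 26.1 CPM and skeletal muscle markers (8 genes) at most 23.9 CPM in any library. Dicer control replicate 3, which differed in the clock genes, had the highest Schwann cell and the lowest fibroblast sum of its group. Dgcr8 iKO replicate 2, with the highest Dbp of its group, had an adipocyte sum of 22.1 CPM beside 3.53 and 4.78 CPM. The same library had the highest Schwann cell sum of its group (28573 CPM). Its macrophage (2364 CPM) and fibroblast (13005 CPM) sums were the lowest.

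The annotation places several of these genes next to or inside others. Nr1d1 (chromosome 11, 98767932 to 98775333, GRCm38) shares 1075 bases with Thra on the opposite strand, and Dbp (chromosome 7, 45705088 to 45710203) shares 737 bases with Sphk2. Per3 (chromosome 4, 151003652 to 151044665) lies wholly within Camta1 on the same strand, and an antisense transcript covers all of Ciart. The labels describe stranded kits, but the strand setting of the counting is not given in the sources used here. Thra was at 55.3 to 90.4 CPM in Dgcr8 iKO and 129 to 139 CPM in controls. In Dicer iKO it was at 79.8 to 89.0 CPM against 139 to 154 CPM, while Nr1d1 overlapped between those groups. At 3 dpc Thra was at 28.0 to 37.3 CPM against 60.5 to 79.3 CPM in uncrushed nerves. Camta1 was also lower in crushed nerves (8.43 to 11.9 CPM against 19.5 to 21.7 CPM), and was lower in Dicer iKO (7.66 to 11.1 CPM against 16.1 to 27.2 CPM) about as in Dgcr8 iKO (8.97 to 11.4 CPM against 20.2 to 25.5 CPM). Sphk2 lay within 24.0 to 34.1 CPM in all 12 iKO libraries. Whether counts were shared between these neighbors was not tested.

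The files list counts per transcript, from which shares within a gene were taken. The main Per3 transcript (5999 bases) held 66.7 to 76.6% of Per3 counts in the means of all 7 groups. For Tef, the 4401-base transcript held 45.3 ± 1.08% (SD, n = 3) in Dgcr8 controls and 35.0 ± 1.27% in Dgcr8 iKO, and the 4079-base transcript was at 41.7 ± 2.94% and 52.9 ± 0.921%. The latter was at 18.8 ± 1.07% in uncrushed and 33.9 ± 5.95% (n = 4) in crushed nerves, and neither pair of groups overlapped. For Dbp, a transcript of 1732 bases held 24.7 ± 3.55% of counts in Dgcr8 controls and 10.5 ± 1.84% in Dgcr8 iKO, and one of 801 bases held 36.6 to 43.7% in the means of the crush groups but 0.461 to 2.44% in those of the iKO groups. Shares of the 4671-base Per1 transcript ranged from 0 to 74.5% between Dicer iKO libraries and were not compared. These shares are estimates of the authors' quantification and were given without a test.

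The genes whose profiles were most like that of Per3 were found by the root mean square difference of log2(CPM + 1), each profile centered on its mean. In the 11 crush libraries they were Ak5, Mapk3, Mvb12b, Sh3bp5l and Gprc5b (0.07 to 0.08, out of 12625 genes). Of the other genes followed here Ciart was closest (0.17, rank 157), at a low level where adding 1 to the CPM shrinks differences. In the 12 iKO libraries the most similar genes outside the set were Podn, Tns2, Tns1, Tppp3 and Mturn (0.31 to 0.35, out of 11952 genes). There the clock genes Tef (0.28), Nr1d2 (0.29) and Per2 (0.33) were among the closest, at ranks 1, 2 and 6 of all genes. With group means removed, 0 of the 5 were among the first 5 in either experiment. Tef, Nr1d2 and Per2 were then at ranks 3132, 4302 and 8982 in the iKO libraries, while Tef went from rank 384 to rank 6 in the crush libraries. The profiles follow groups by which Per3 may have been chosen and are given as a description.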

How the data were processed

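Per the labels and the study's methods, the authors trimmed reads with Trimmomatic and estimated transcript abundance with RSEM on GRCm38. The deposited tables give, per transcript and library, the expected counts, TPM and FPKM that the authors obtained with RSEM, and TPM were not used. Crush libraries were made with a SMARTer pico kit according to the labels, and iKO libraries with TruSeq; the study's methods describe TruSeq alone. Deposited counts were summed per gene and rounded. Genes were kept by filterByExpr (minimum count 10), TMM-normalized and tested with edgeR 4.0.16 (quasi-likelihood, R 4.3.3) within the groups compared, and with an interaction term for the difference between mutants. Calls needed a 2-fold change and an adjusted p of at most 0.05 (Benjamini-Hochberg; for the interaction, the p alone). CPM use TMM over all libraries of an experiment. Fits were tested on simulated data. The genes and lists were chosen with earlier results of these data known. Per3 has no p, and the other 9 genes have none where Per3 was called. Of the other clock genes, those called and Clock, Cry1, Cry2, Nfil3, Hlf, Bhlhe40, Bhlhe41 and Rora are named, except 1 called gene that is counted but not reported here. Alternatives were RLE normalization, no filter, DESeq2 1.42.0, a replicate block, all groups in one fit, a pseudocount of 0.5 and leaving out each library. Between replicates, chi-square per degree of freedom was 4.36 to 42.4 over 27 pairs, so all libraries were counted as separate samples.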

Additional observations from a re-analysis of the deposited data

Results flagged for a closer look

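Of 36 groups of 4 libraries looked at, 2 held a library far from the others, and chance flags about 1 in 20 groups. Per1 was at 71.1 CPM in contralateral replicate 1 and at 109 to 116 CPM in the other 3. Npas2 was at 1.10 CPM in the same library and at 0.489 to 0.591 CPM in the other 3, all near the lowest readable level.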

How the results depend on the processing

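Same-numbered libraries did not deviate together in every pair of any comparison (correlations from -0.174 to 0.177), so the numbers were not taken as pairs. With the number as a replicate block, the Per3 difference between mutants (-1.27) was not called (0 of the 10 genes), nor were Hlf and Timeless in Dicer iKO (0 lower and 0 higher among the other clock genes). With RLE normalization that Per3 difference was -1.26 and not called (0 genes), and DESeq2 called 5 of the 10 genes lower (Per3, Nr1d1, Nr1d2, Dbp and Ciart). Between the control groups, 1 gene (Arntl) was called higher without a filter, with DESeq2 and with all groups in one fit. Other clock genes called lower in Dicer iKO numbered 2 without a filter, 3 with DESeq2 and 2 with all groups in one fit. Tef at 3 dpc was -0.84 without a filter. Without a filter the median of all genes was -0.39 at 3 dpc against uncrushed nerves, -0.11 against contralateral nerves and -0.16 between the controls, and with all groups in one fit -0.20 and -0.15 at 3 dpc; relative to it, the members kept their direction at 3 dpc except Nr1d2 (-0.03) against uncrushed nerves without a filter, where Nr1d1 (-0.41) lay at the median. A pseudocount of 0.5 gave differences of means of -5.12 in contralateral, -4.82 in uncrushed, -3.29 in Dgcr8 control, -4.67 in Dicer control and -4.53 in Dicer iKO nerves. Of the genes most like Per3, 0 were shared in the crush and 0 in the iKO experiment with group means removed. Over all genes, the comparison of contralateral with uncrushed nerves called 0, against 141 without a filter, 31 with DESeq2 and 6 with the block; that of the control groups 4, against 230, 292 and 1, and 223 with all groups in one fit; and the difference between mutants 2, against 20, 235 and 0, and 1 with RLE. The cause was not tested.

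Leaving out 1 library gave 5 to 8 genes called lower and 0 to 1 higher in Dgcr8 iKO, 0 to 1 higher between the control groups, and 0 to 1 lower in the difference between mutants. Among other clock genes it gave 0 to 1 higher and 0 to 2 lower in Dicer iKO, 2 to 4 higher in Dgcr8 iKO and 0 to 1 lower between the control groups. Directions turned for values near 0. Between contralateral and uncrushed nerves, Per1 ranged from -0.0070 to 0.23, Per2 from -0.21 to 0.0031, Ciart from -0.072 to 0.080 and Arntl from -0.066 to 0.45. In Dicer iKO, Nr1d1 ranged from -0.15 to 0.50, Dbp from -0.17 to 0.17, Ciart from -0.16 to 0.23 and Arntl from -0.054 to 0.36. Between control groups, Per1 ranged from -0.41 to 0.17 and Ciart from -0.28 to 0.10, and the difference between mutants for Arntl from -0.029 to 0.39.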
